A study of Caenorhabditis elegans with 45 samples.

Results

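A set of 60 worm genes that carry only a sequence name, such as F19H8.2, had a pulse of transcript abundance in the first hours after dauer larvae were given food. They were chosen by the authors' log2 values among the 20182 genes of the table: the mean of hours 4 to 7 of dauer exit had to be at least 1 higher than the mean of hours 1 to 2, and at least 1 higher than the mean of hours 11 to 22. In all, 145 genes (0.718% of the table) met that rule, and 82 of them carry a gene symbol and 3 have no name in the tables used. Of the 8525 genes of the table without a symbol, 60 were kept. Since these values chose the genes, the pulse itself is described below without a test.

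The measurements were RNA-seq counts of polyadenylated RNA from whole Caenorhabditis elegans, with 1 library per hour and no replicate of any hour. In the dauer exit course, N2 larvae (the standard wild-type strain) left diapause on plates with the food bacterium OP50, with 22 libraries at 1 to 22 h after food was given. In the continuous course, N2 larvae that had hatched overnight were put on the same food and sampled hourly, with 16 libraries at sample-name hours 21 to 36; the labels put these worms at 22 to 37 h of actual development, because that course grew slowly. In the glp-4 course, worms of the strain glp-4(bn2), a temperature-sensitive mutant with few germ cells at the restrictive temperature, were grown continuously and sampled every 2 h, with 7 libraries at 40 to 52 h. All courses used whole animals, and no source used here gives the growth temperature.

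The dauer larva is an alternative, non-feeding stage that survives long periods without food behind a specialised cuticle and a sealed mouth. Food starts recovery: the animal resumes pharyngeal pumping, rebuilds its metabolism, and then enters the larval cycle again, in which a new cuticle is made and the old one is shed at each molt. Many transcripts of the epidermis, the tissue that secretes the cuticle, rise and fall once in each larval cycle.

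Total counts per library were 18521397 to 23904100 in dauer exit, 18512549 to 43984242 in continuous N2 and 23978316 to 36817376 in glp-4. Known tissue markers were summed per library for comparison. The summed germline list (7 genes) had a median of 86.7 CPM (counts scaled to a library total of 1000000) in glp-4, against 1188 CPM in continuous N2. Within dauer exit, the intestinal list (7 genes measured) had medians of 3848, 3449 and 2609 CPM at hours 1 to 2, 4 to 7 and 11 to 22. The epidermal list (6 measured) had 492, 685 and 1248 CPM in the same windows, the neuronal list (7 genes) 1023, 488 and 241 CPM, and the body-wall muscle list (6 genes) 285, 310 and 8322 CPM. The pharyngeal list (5 genes) had 2698, 2075 and 1108 CPM, the germline list 1039, 899 and 1768 CPM, and a list of dauer and early recovery genes (9 genes, 1 of them at 0 in all libraries of hours 4 to 7) spanned 192 to 208, 148 to 208 and 42.3 to 96.1 CPM. None of these markers met the pulse rule. In whole animals fewer cells of a type and less RNA per cell cannot be told apart, and the part of changing tissue shares in the values below was not tested.

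All 60 genes are annotated as protein-coding, with a median longest coding sequence of 301 codons (72 to 2224), against 271 codons over all 8011 protein-coding genes of the table without a symbol. By chromosome, 8 lie on I, 16 on II, 5 on III, 4 on IV, 17 on V and 10 on X. Chromosome II holds 26.7% of them and 17.3% of all protein-coding genes of the table. Chromosome IV holds 6.67% of them and 16.2% of all. The shares of all genes include genes with a symbol, and the members were not compared with genes without a symbol alone. Protein and promoter sequences of these genes were not analysed here.

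The pulse was broad and, for most of the genes, centred between hours 6 and 7. The median gene stood at -0.85 (log2) relative to its own 22 h mean at hour 1, at 0.20 at hour 3, at 1.49 at hour 6, at 1.52 at hour 7 and at -0.62 at hour 10. Mean levels of hours 4 to 7 spanned 1.15 to 490.0 CPM with a median of 19.1 CPM. The median of the genes was 3.60 CPM at hours 1 to 2, 19.1 CPM at hours 4 to 7, 8.91 CPM at hours 8 to 10 and 4.50 CPM over hours 11 to 22. Of the 60, 22 genes averaged under 10 CPM at hours 4 to 7, and 7 reached 100 CPM or more. These means rest on 94 to 40428 reads per gene, summed over the 4 libraries.

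Pulse height, taken as the lower of the rise and the drop, had a median of 1.44 and ran from 1.00 to 3.35 (log2). The difference to hours 1 to 2 had a median of 1.86 and the difference to hours 11 to 22 a median of 1.56. In 40 genes the later flank set the height and in 20 the earlier one. Just inside the threshold lay C08G9.2 at 1.00, Y39G8B.2 at 1.01 and B0261.8 at 1.01, and just outside it F46F2.5 and C14B9.2, both at 0.99, and T13F2.4 at 0.97. All 4 values of hours 4 to 7 lay above both values of hours 1 and 2 in 55 genes, but above all 12 values of hours 11 to 22 in 18, since many had high values again at later hours.

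The single highest library of the course fell at hours 4 to 7 in 44 genes and outside them in 16. The highest value came at hour 3 in 5 genes, hour 4 in 6, hour 5 in 2, hour 6 in 19, hour 7 in 17 and hour 8 in 8. Another 3 genes had their maximum in the later pulse, F43C9.1 and Y43C5A.3 at hour 13 and Y47D3B.4 (named after its values were seen) at hour 14. The median gene stayed within 1 (log2) of its maximum for 3.5 h. By hour 3, 29 genes were already within 1 of their mean of hours 4 to 7. At hour 8 this held for 46 genes and at hour 10 for 21.

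**Figure D1:**
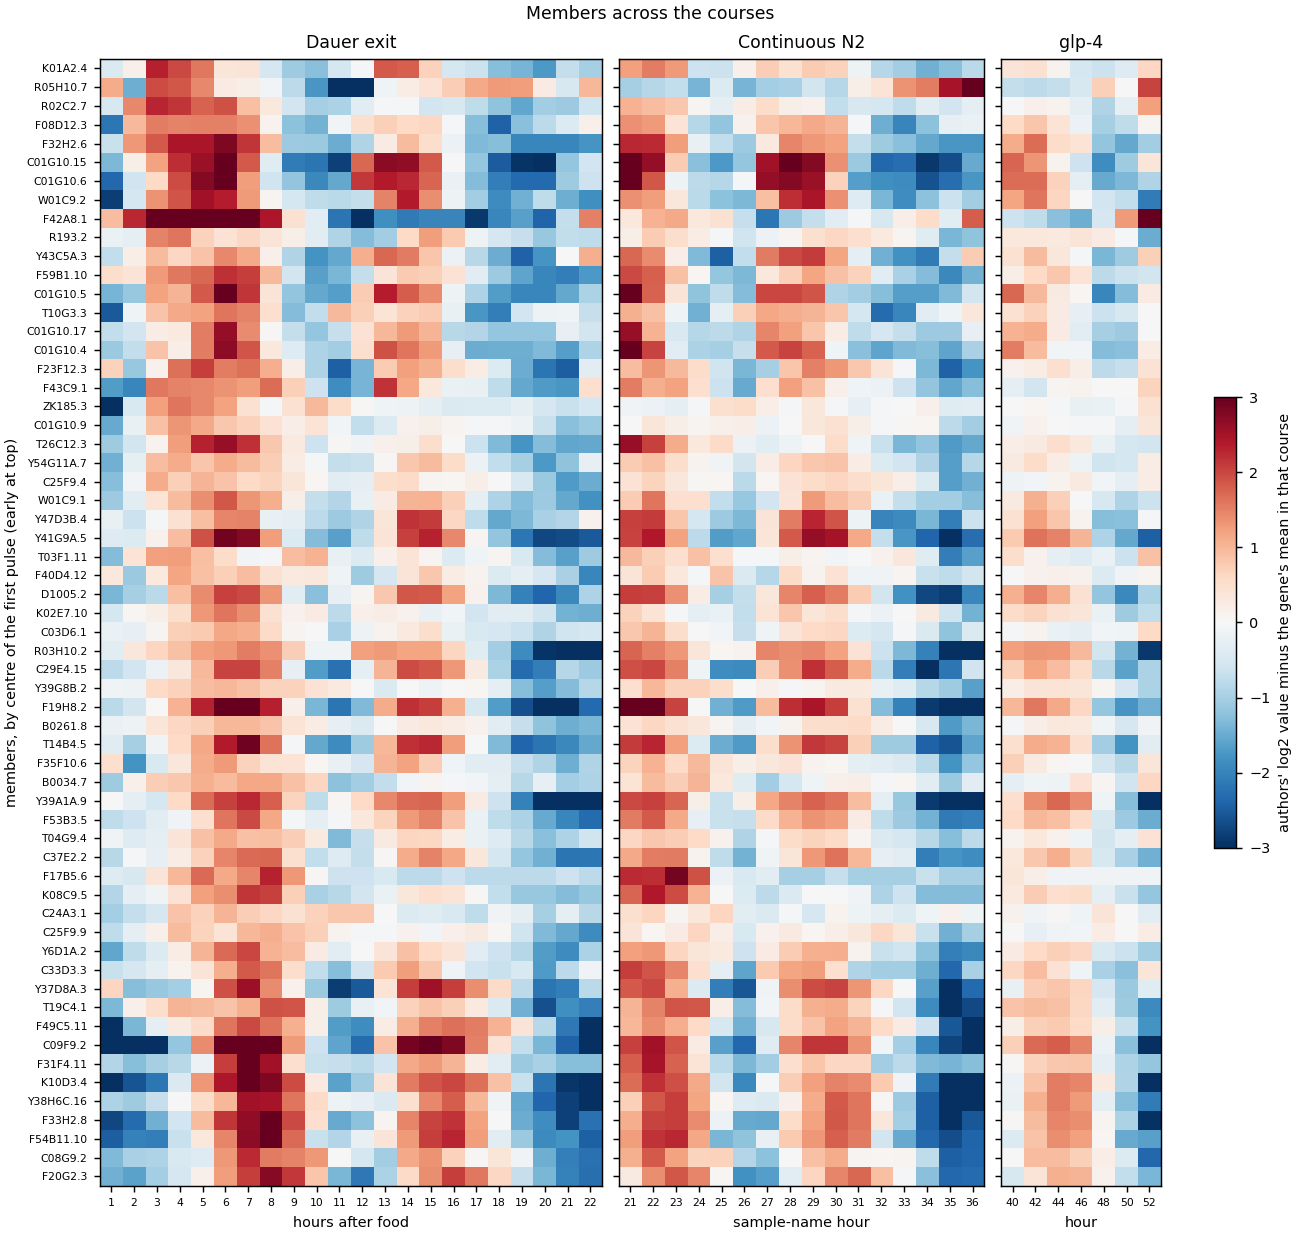
Authors' log2 value of each of the 60 genes (rows, ordered by the centre of their first pulse over hours 3 to 10, earliest at the top) in every library, minus the gene's mean in that course, for dauer exit, continuous N2 and glp-4 (columns, hours). A first red band lies at hours 4 to 8 of dauer exit, a second at hours 13 to 16 in most rows, and bands near hours 21 to 23 and 28 to 31 in continuous N2; colours are clipped at 3 above and below the mean.

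The member with the highest mean level at hours 4 to 7, and an early one, was F42A8.1 (WBGene00009626; chromosome II, 9341397 to 9346590, WBcel235). It measured 106, 266 and 452 CPM at hours 1, 2 and 3, then 516, 490.0, 502 and 452 CPM at hours 4 to 7, and 298, 75.8 and 44.8 CPM at hours 8 to 10. From hour 11 to hour 20 it lay between 6.18 and 17.7 CPM, before 33.6 and 158 CPM at hours 21 and 22. The values of hours 4 to 7 lay above all other hours except hour 3, which was at the level of hour 7.

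ZK185.3 (WBGene00022683; chromosome IV, 4528759 to 4530432) also peaked at hour 4. It had 0.966 CPM at hour 1, 12.1 at hour 2, 39.5 at hour 3 and 51.7, 46.1, 39.2 and 23.2 CPM at hours 4 to 7. After a low of 16.2 CPM at hour 8 it was at 32.9 CPM at hour 10 and then stayed between 10.5 and 24.7 CPM, so its lowest pulse value overlapped the later hours. R193.2 (WBGene00020128; chromosome X, 1132993 to 1148585) was high at hours 3 and 4, with 435 and 473 CPM, against 135 and 126 CPM at hours 1 and 2, and reached 370 CPM again at hour 15. The step at hour 3 is 1 library and has no replicate check.

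Another member with an early maximum was R05H10.7 (WBGene00011046; chromosome II, 14855529 to 14857019). Its values were 50.6 and 8.23 CPM at hours 1 and 2, 90.6 CPM at hour 3, and 85.9, 63.5, 27.6 and 26.3 CPM at hours 4 to 7. It was at 0.766 CPM at hour 12 and stood at 57.1 CPM at hour 18. Its pulse values overlapped both flanks. W01C9.2 (WBGene00012176; chromosome II, 8536360 to 8538652) was highest at hour 5: it had 0.588 and 4.38 CPM at hours 1 and 2, and 25.1, 38.6, 34.8 and 16.2 CPM at hours 4 to 7. F23F12.3 (WBGene00017751) was also highest at hour 5. It had 11.2 and 2.89 CPM at hours 1 and 2, and 22.2, 29.7, 20.4 and 22.2 CPM at hours 4 to 7.

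The pulse of greatest height belonged to F19H8.2 (WBGene00008963; chromosome II, 14604139 to 14605869). It read 15.9, 18.9 and 28.3 CPM at hours 1 to 3, then 57.7, 140.0, 326 and 394 CPM at hours 4 to 7, and 143, 31.2 and 10.6 CPM at hours 8 to 10. Over hours 11 to 22 its lowest, median and highest values were 2.72, 9.67 and 129 CPM. Hours 5 to 7 lay above every library of hours 11 to 22 and hour 4 did not.

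K10D3.4 (WBGene00010738), the other member with a very high level, had its pulse later. It measured 13.1 and 19.0 CPM at hours 1 and 2, 85.5, 285, 627 and 917 CPM at hours 4 to 7, and still 809 CPM at hour 8. Over hours 11 to 22 it ranged from 10.6 to 463 CPM with a median of 112 CPM. C09F9.2 (WBGene00007479; chromosome II, 14705515 to 14713240) had the largest step of the set, 5.17 (log2) above hours 1 to 2. It held 6.09 and 4.09 CPM at hours 1 and 2 and 25.2, 155, 501 and 704 CPM at hours 4 to 7, and was at 548 CPM again at hour 15. Its pulse and its later values overlapped, while the values of hours 1 and 2 lay below all 4.

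The other members with a maximum at hour 6 or 7 had lower mean levels at hours 4 to 7. Y41G9A.5 (WBGene00021529) averaged 11.8 CPM at hours 1 to 2, then 78.9 CPM at hours 4 to 7, with a median of 7.90 CPM later. T26C12.3 (WBGene00020833) averaged 0.844 and 9.10 CPM in the same windows, with a later median of 1.27 CPM. T14B4.5, F32H2.6, Y39A1A.9 and T10G3.3 averaged 30.0, 7.86, 112 and 121 CPM at hours 4 to 7, against 4.31, 1.89, 29.5 and 25.0 CPM at hours 1 to 2. The latest first pulse was that of F20G2.3 (WBGene00008987; chromosome V, 13765926 to 13768488), with 26.8, 42.6, 91.4 and 163 CPM at hours 4 to 7, 256 CPM at hour 8 and 68.3 CPM at hour 10.

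**Figure D2:**
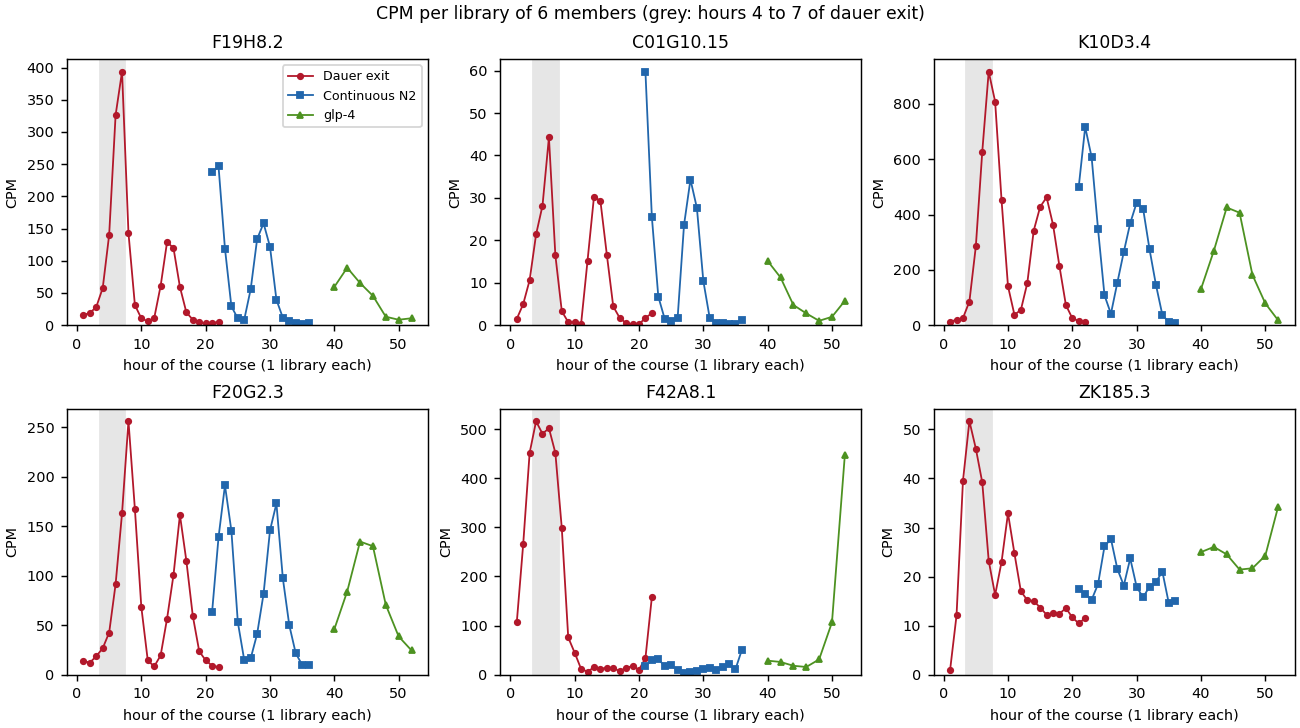
CPM of 6 members in every library (y axis, from 0, a scale for each panel) against the hour of its own course (x axis), for dauer exit (red circles), continuous N2 (blue squares) and glp-4 (green triangles); grey marks hours 4 to 7 of dauer exit. F19H8.2, C01G10.15, K10D3.4 and F20G2.3 show a second dauer exit pulse and pulses in N2, while F42A8.1 (at 158 CPM at hour 22 of dauer exit) and ZK185.3 had no called wave in late dauer exit or N2.

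Some reads could belong to neighbours. The library kit keeps the strand, per the labels' protocols, but whether the counting used it is given by no source used here, and 20 members overlap another annotated gene (17 of them one on the opposite strand). None of the overlapping genes that were measured met the pulse rule. All 1731 bases of F19H8.2 lie within tps-2, a trehalose phosphate synthase gene on the opposite strand. The tps-2 gene averaged 103 CPM at hours 4 to 7, against 159 CPM at hours 1 to 2. K10D3.4 overlaps hpo-11 by 1417 bases on the same strand. The hpo-11 gene averaged 79.9 CPM at hours 4 to 7, against 111 CPM at hours 1 to 2. C29E4.15 overlaps let-754, an adenylate kinase gene, by 686 bases, and Y54G11A.7 overlaps the catalase gene ctl-2 by 65 bases. Both members are named for that overlap after their values were seen. The values of let-754 and ctl-2 were 1.13 and 2.06 higher at hours 4 to 7 than at hours 1 to 2. Their differences to hours 11 to 22 were 0.61 and -0.39. The counts of C29E4.15 and Y54G11A.7 are thus uncertain, and the part of such reads in any overlapping member was not tested.

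Hours 11 to 22 of dauer exit showed a second rise in many of the genes. These libraries are one of the flanks that chose the members, so their values are described here and support nothing. An 8 h wave was fitted to them, and its amplitude (log2, mean of the curve to its crest) had a median of 1.39 over the 59 members fitted and of 0.32 over all genes fitted. By the call rule given for N2 below, 47 of the 59 members (79.7%) had a wave, against 32.7% of all genes, and since the libraries were used in the choice nothing is read from that difference.

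In these 47 members the fitted second peak lay between 13.4 and 16.8 h, with a median of 15.4 h. In 53 of the 60 the highest late library was at hours 13 to 16. By a stricter measure, 34 members had a mean of hours 13 to 16 at least 1 (log2) above the means of hours 10 to 11 and 19 to 21. The amplitude was 2.72 ± 0.40 (SE of the fit) in C01G10.4 and 2.65 ± 0.43 in C01G10.17, the widest of the 47. C09F9.2 peaked at 15.7 ± 0.3 h with an amplitude of 2.24 ± 0.55, and F19H8.2 at 15.2 ± 0.2 h with one of 2.10 ± 0.34. In 27 members the highest library of hours 11 to 22, at whichever hour it came, reached the mean CPM of hours 4 to 7. The fitted second peak followed the centre of the first pulse by a median of 8.95 h (7.61 to 10.6 h, 47 members). That centre was computed within hours 3 to 10, in genes chosen for high values at hours 4 to 7. The second peak was placed within 11 to 19 h, so these windows bound the interval.

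The continuous N2 course was not used by the rule and so bears on the genes independently of it. A wave was called at a Benjamini-Hochberg adjusted p under 0.05 in edgeR's quasi-likelihood F-test and a fitted amplitude of 0.5 or more. In N2 it was called in 41 of 60 members (68.3%), against 26.3% of all genes tested. The median fitted amplitude was 1.16 over the members and 0.27 over all genes, and 34 of the called members had an amplitude of at least 1. Of the 80 genes with a symbol that met the pulse rule and were tested, 64 (80.0%) had the call, and of the 6538 tested genes without a symbol that did not meet the rule, 2070 (31.7%) had it. The difference between these shares was not tested.

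The widest N2 waves were those of C01G10.4 (amplitude 2.84 ± 0.35, adjusted p = 1.3e-05), C01G10.5 (2.78 ± 0.39) and C01G10.15 (2.63 ± 0.34). C01G10.15 read 59.7, 25.5 and 6.75 CPM at hours 21 to 23, a low of 0.961 CPM at hour 25, and 23.6, 34.3 and 27.6 CPM at hours 27 to 29. From hour 31 on it stayed between 0.273 and 1.62 CPM. Y43C5A.3 had an amplitude of 2.18 ± 0.25 and Y41G9A.5 one of 2.13 ± 0.31. K10D3.4 was between 9.53 and 717 CPM in N2, with maxima at hours 22 and 30, and F20G2.3 between 10.0 and 191 CPM, with maxima at hours 23 and 31.

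Members with an early fitted peak in late dauer exit also had an early one in N2. Called peaks in N2 ran from 28.1 to 31.3 h with a median of 29.8 h. Before 29 h came 9 members, among them C01G10.15, C01G10.6, C01G10.5, C01G10.4, C01G10.17, W01C9.2 and T10G3.3. From 29 to 30 h came 16, among them F19H8.2 at 29.4 ± 0.2 h, Y41G9A.5, T14B4.5 and C09F9.2, and from 30 h another 16, among them K10D3.4 at 30.5 ± 0.3 h and F20G2.3 at 30.9 ± 0.1 h.

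Across the 39 members called in both fits, the peak in late dauer exit and the peak in N2 had a Pearson r of 0.94 (Spearman's rho 0.91). The N2 hour was 14.4 h larger in the median (13.9 to 15.2 h). The centre of the first pulse had an r of 0.71 with the late dauer exit peak over 47 members and of 0.64 with the N2 peak over 41. These correlations run across genes of the same libraries, which are not independent replicates, and are given as description. In the same fits mlt-10, a gene needed for molting, peaked at 17.5 h in late dauer exit and 32.0 h in N2, and all 47 called members in late dauer exit and all 41 in N2 peaked before it, within cycles taken as 11 to 19 h and 28 to 36 h. The furrow collagen gene dpy-7 peaked at 16.2 and 30.5 h, with 39 of the 47 called members before it in late dauer exit and 30 of 41 in N2.

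**Figure D3:**
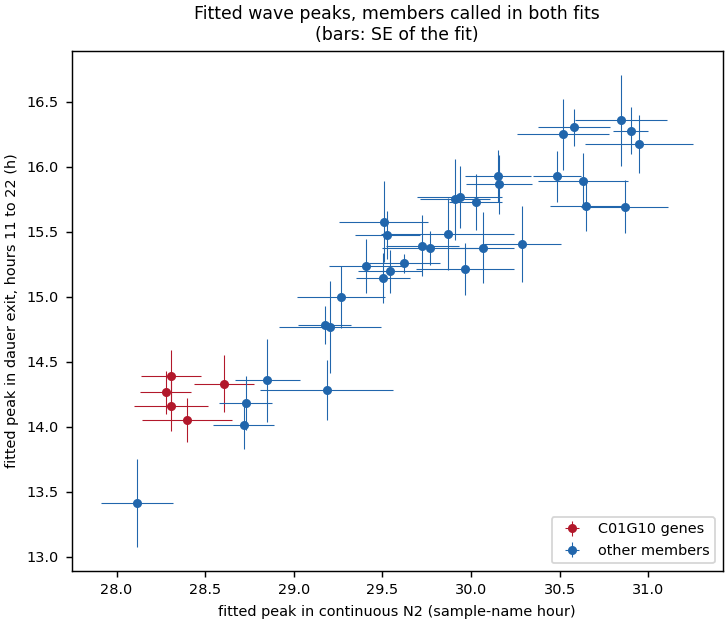
Fitted peak hour in dauer exit hours 11 to 22 (y axis) against the fitted peak hour in continuous N2 (x axis) for the 39 members called in both fits, with bars for the SE of each fit; red marks genes of the C01G10 stretch. The points run from 13.4 and 28.1 h to 16.4 and 30.9 h, and the 5 red points lie at the early end.

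Beside the wave, the fitted line fell across the N2 course in most of the genes. With the same test and adjusted p threshold, a linear fall of at least 1 (log2) over the course was called in 38 of 60 (63.3%), against 15.3% of all genes. A rise was called in 1 member, R05H10.7, against 20.6% of all genes. The fitted change was negative in 58 members, with a median over all genes of -0.12 with TMM factors and 0.04 with RLE factors. Both a wave and a fall were called in 28 members. The fitted line changed by -5.67 ± 0.76 (SE, log2) in C01G10.4 and by -3.67 ± 0.77 in F19H8.2 over the course (adjusted p = 1.3e-05 and 0.0026). Their highest values fell less. In C01G10.4 the highest value was 8.74 CPM in hours 21 to 28 and 2.66 CPM in hours 29 to 36, and in F19H8.2 247 and 158 CPM. The median fitted change of the members was -1.84, and -1.35 with hour 36 left out. K08C9.5 had at most 0.433 CPM in hours 29 to 36, against 3.46 CPM in hours 21 to 28, and F17B5.6 at most 0.0682 CPM, against 3.91 CPM. The highest value of hours 29 to 36 was below that of hours 21 to 28 in 33 of the 41 members with a wave, with a median ratio of 0.785.

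R05H10.7 went the other way. It had a median of 0.198 CPM in N2 with 0 in 2 of the 16 libraries, and 1.65, 1.91, 3.90 and 6.92 CPM at hours 33 to 36 (fitted change 7.11 ± 1.20). In dauer exit its lowest library had 0.766 CPM and its mean of hours 4 to 7 was 50.8 CPM.

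For levels across courses, the mean of hours 4 to 7 of dauer exit was set against the single highest library of each other course. A mean of 4 libraries lies below the highest of them, so the counts below lean toward the other courses. The highest libraries of the courses were not counted against each other. The mean of hours 4 to 7 was above the highest N2 library in 24 members and below it in 36. It was above the highest library of both other courses in 21. It was at least 4 times the highest N2 library in 3 members, F42A8.1 (490.0 CPM, against at most 50.9 in N2), R05H10.7 (50.8 against 6.92 CPM) and R02C2.7 (7.56 against 1.86 CPM, named after its values were seen). Median levels over members were 7.12 CPM in N2 and 7.53 CPM in glp-4. Per length, F42A8.1 had 377 RPKM (CPM per kilobase of exon) at hours 4 to 7 and F19H8.2 194 RPKM, the median of the members being 15.5 RPKM.

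In glp-4 no wave was called in 59 members tested or in any gene (0% of all genes) at a period of 8 h, with 7 libraries and 3 residual degrees of freedom in edgeR's quasi-likelihood fit. At an unadjusted p under 0.05, 5 of the 59 members had a wave, against 3.81% of all genes. DESeq2 called 0 members and 180 genes in all (1.25%), and edgeR with a 9 h period 0 members and 69 genes (0.479%). The highest library was that of hour 40 in 6 members, 42 in 21, 44 in 17, 46 in 3, 48 in 1 and 52 in 12. C09F9.2 read 270, 534, 575, 463, 144, 69.0 and 8.03 CPM over the 7 libraries, and K10D3.4 131, 269, 426, 407, 182, 78.7 and 17.4 CPM. Both had a single maximum at hour 44 and their lowest value at hour 52.

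A fall of at least 1 over the glp-4 course was called in 8 of 59 members (13.6%), against 1.53% of all genes, by the same test. They included F32H2.6 (-4.83 ± 0.84, adjusted p = 0.043), C01G10.6 (-4.16 ± 0.53, adjusted p = 0.025), F19H8.2 (-4.03 ± 0.48, adjusted p = 0.023) and D1005.2 (-3.80 ± 0.43, adjusted p = 0.021). F19H8.2 had 59.3, 89.2, 65.4, 45.5, 13.1, 8.38 and 10.7 CPM. Of the 8, 7 also fell in N2. The count was 27 with DESeq2, where 4.77% of all genes were called, and 21 with a 9 h period, where 4.67% were. No rise was called (0 members, against 5.17% of all genes), 1 member passed at an unadjusted p under 0.05 (13.1% of all genes), and DESeq2 called 2 (11.6% of all genes). F42A8.1 read 28.6, 26.0, 18.2, 15.8, 31.1, 107 and 448 CPM, a change of 3.54 ± 1.38 that did not pass (adjusted p = 0.21), and its last library alone came near its dauer exit level.

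A wave was called in neither N2 nor late dauer exit in 11 members. These are F42A8.1, ZK185.3, R05H10.7, F43C9.1, C24A3.1, F17B5.6 and C25F9.4, and, named because they complete this group, K02E7.10, F40D4.12, F35F10.6 and T03F1.11. Their maxima were early in 6 of the 11 (hours 3 or 4), while 11 of all 60 members had a maximum then. By hour of the maximum, the N2 wave was called in 5 of the 13 members with a maximum at hours 3 to 5, in 28 of 36 at hours 6 and 7 and in 6 of 8 at hour 8. The late dauer exit wave was called in 7, 32 and 6 of the same members. In 7 of the 11 the mean of hours 4 to 7 was above the highest N2 library. ZK185.3 had lowest, median and highest values of 14.6, 18.1 and 27.7 CPM in N2. F17B5.6 had only 109 reads at hours 4 to 7 and was not tested in late dauer exit or glp-4.

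One stretch of chromosome V, 15082530 to 15091114 (WBcel235), holds 6 of the 60 members among its 9 protein-coding genes of the table: C01G10.9, C01G10.15, C01G10.6, C01G10.5, C01G10.4 and C01G10.17. Other kinds of gene were not counted. The last 5 are small genes of 2 exons with coding sequences of 72 to 100 codons, on both strands, and all 5 peaked at hour 6. C01G10.6 read 0.0840 and 1.20 CPM at hours 1 and 2, 8.90, 15.7, 19.8 and 5.32 CPM at hours 4 to 7, and 0.249 CPM at hour 10, and was back at 12.0 CPM at hour 13. C01G10.15 had 1.47 and 4.96 CPM at hours 1 and 2, 21.4, 28.2, 44.3 and 16.5 CPM at hours 4 to 7, and 30.2 CPM at hour 13. In both, the pulse lay above hours 1 and 2 and overlapped the second pulse.

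C01G10.5, C01G10.4 and C01G10.17 were lower, with means of 7.45, 3.82 and 2.39 CPM at hours 4 to 7, against 0.319, 0.252 and 0.159 CPM at hours 1 to 2. C01G10.9, a longer gene of 366 codons, differed: it was highest at hour 4 (95.0 CPM) and stayed between 15.5 and 43.0 CPM at hours 11 to 22. It had no called wave in N2 (amplitude 0.23 ± 0.11, adjusted p = 0.22), but its wave in late dauer exit was called. The 3 other genes of the stretch did not meet the rule: ahsa-1 averaged 323 CPM at hours 4 to 7, against 294 CPM at hours 1 to 2, C01G10.7 had 20.2 and 14.3 CPM (differences of 0.16 and 0.51, log2), and C01G10.18 had no reads in either window. Over the 16 N2 libraries, which the rule did not use, Pearson's r of the log2 values between the 6 members had a median of 0.92 (0.14 to 0.97), and between all 60 members of 0.71 (-0.93 to 0.99), as a description of genes measured in the same libraries. No source used here says how reads that fit several genes were counted, and sequence likeness within the stretch was not analysed here.

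**Figure D4:**
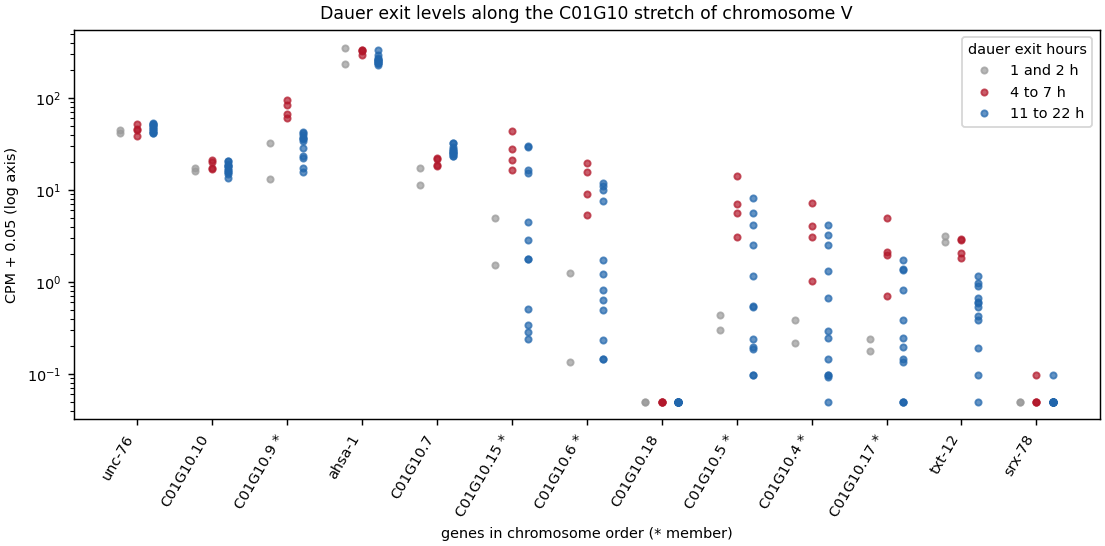
CPM plus 0.05 (log axis) in each dauer exit library of hours 1 and 2 (grey), 4 to 7 (red) and 11 to 22 (blue) for the C01G10 genes and their neighbours in chromosome order; stars mark members. The 6 starred genes are higher at hours 4 to 7 than at hours 1 and 2, while ahsa-1 and C01G10.7 differ little between those hours and C01G10.18 has no reads there.

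Other members with no protein-coding gene of the table between them were W01C9.1 and W01C9.2 on chromosome II, 1996 bases apart and on opposite strands, and C25F9.4 and C25F9.9 on chromosome V, 35 bases apart. W01C9.1 averaged 3.67 CPM at hours 4 to 7, against 0.577 CPM at hours 1 to 2. The next protein-coding genes on either side of the W01C9 pair, gldi-7 and pqn-73, averaged 41.5 and 1.70 CPM at hours 4 to 7, against 31.6 and 1.48 CPM at hours 1 to 2.

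Among 4126 genes with a symbol and a range of at least 2 (log2), the dauer exit profiles nearest to the median profile of the members, whose pulse the rule had chosen, were those of dhs-27 (r = 0.96 over 22 libraries), ztf-2, pan-1, ugt-57, dpy-19, anoh-1, cutl-9, dhs-29, rml-4, sym-2, myrf-1 and cyp-34A5 (r = 0.90). Of these 12, cyp-34A5, a cytochrome P450 gene, did not itself meet the rule. The short-chain dehydrogenase gene dhs-27 averaged 74.7 CPM (hours 4 to 7) and 14.6 CPM (hours 1 to 2), and the UDP-glucuronosyltransferase gene ugt-57 128 and 16.0 CPM. The transcription factor gene myrf-1 averaged 415 and 79.7 CPM, and pan-1, a leucine-rich repeat protein gene, 337 and 118.7 CPM.

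Of the gene families counted for comparison, 5 of 25 scl genes (SCP-like secreted proteins, 20.0%) met the pulse rule, against 0.718% of all genes. That was the highest share among the many families counted, and it was not tested. The next highest was that of the cpr genes, with 1 of 8 (12.5%). The family members scl-24 and scl-6 averaged 13.1 and 20.4 CPM at hours 4 to 7, against 1.48 and 2.70 CPM at hours 1 to 2. The count was 3 of 259 for C-type lectin genes (clec-172 and clec-7 among them), 2 of 24 for patched-related ptr genes, 2 of 75 for cyp genes and 2 of 111 for fbxb genes. No gene met the rule among 29 nucleolar and ribosome biogenesis genes. The same held for 45 rpl and 31 rps ribosomal protein genes and for 22 hsp heat shock genes. Many other families counted also had no such gene, among them srh (223 genes) and str (194 genes). At a share of 0.718% of all genes, lists of 22 to 45 genes can lack such a gene by chance. Nothing about these families is therefore read from its absence.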

How the data were processed

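Raw counts per gene for 45 libraries and a second table of log2 values were deposited by the authors; no source used here gives the aligner, the counter or the build. Checked against the counts, the deposited log2 values equal log2 of the scaled count plus 8, where scaling sets each library to the mean total of its own course. Per the labels' protocols, total RNA was taken with Tri-reagent and a stranded mRNA kit was used. The members, gene lists and tests were chosen with earlier results of these data known.

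CPM used library totals, and RPKM the exon length of the WBcel235 annotation, which may not be the build behind the counts. Of the identifiers, 18778 matched a names table and 735 were named by transcript name, and 668 had no name. Members are the genes that met the rule and had only a sequence name; 1 of them, W01C9.1, was named through its transcript name and RefSeq.

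Waves and trends were tested on counts with edgeR 4.0.16 in R 4.3.3 (filterByExpr, TMM factors, quasi-likelihood F-test), per course and over all genes, with an intercept, a linear hour and the cosine and sine of 8 h. With 1 library per hour, errors and p-values measure only scatter around the curve. Fitted changes of genes near 0 depend on the prior count. Simulated counts had the same dispersion for every gene, a flat mean apart from the added wave, and independent hours. On them the N2 step (15150 genes without a wave) called 97 of 99 waves of amplitude 0.7 and 0 false ones. For late dauer exit it was 92 of 97 waves and for glp-4 83 of 100. The scatter and trends of the real courses were not matched, so these shares give neither the power nor the false calls there. In the real glp-4 course no gene was called. Alternatives were RLE factors, no filter, DESeq2 1.42.0, a 9 h period, each hour left out, and other pulse settings. Library size scaling in the fits and hours left out of the pulse rule were added after seeing the data.

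Named members are the 12 of greatest pulse height, the 10 of highest level at hours 4 to 7, the 2 of greatest height per hour of the maximum, the 6 widest called waves per course, the 4 largest called trends each way in N2 and glp-4, the 5 highest and 3 lowest medians in those courses, the 3 on each side of the threshold and the 5 closest neighbour pairs. Genes with a symbol are the 12 nearest profiles and the 2 of greatest height in each family with at least 3 genes that met the rule. Exceptions are marked.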

Additional observations from a re-analysis of the deposited data

Results flagged for a closer look

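Each of 37 named members was examined in the 7 glp-4 libraries for a single value far from the rest (Dixon's criterion, critical value 0.568). Chance meets it in about 1 of 20 groups of independent values around 1 level. The glp-4 libraries are ordered hours and a fall was called in some members, so that share need not apply here. The criterion was met 3 times, each time by the library of hour 52. C08G9.2 was lowest there at 1.63 CPM, with the other libraries between 6.96 and 18.1 CPM. R193.2 was lowest there at 71.0 CPM, with the others between 190 and 259 CPM. ZK185.3 was highest there at 34.3 CPM, with the others between 21.4 and 26.1 CPM. Hour 52 is the last time of the course and has 1 library, so a change with time and a property of that library cannot be told apart.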

How the results depend on the processing

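The N2 wave was called in 41 to 46 members and the late dauer exit wave in 45 to 51 over RLE factors, no filter, DESeq2, a 9 h period and library size scaling. Falling members in N2 numbered 36 to 47 over the same settings. With each hour left out in turn, the counts were 37 to 45 for the N2 wave, 39 to 48 for the late wave, 34 to 40 for falling members in N2 and 1 to 1 for rising ones. In glp-4, falling members numbered 27 with DESeq2 and 21 with a 9 h period, against 8, and rising ones 2 with DESeq2 and 2 with a 9 h period, against 0; of all genes, 4.77% and 4.67% then fell and 11.6% and 11% rose, and the cause was not tested. The pulse rule with both flanks at least 2 lower left 9 genes without a symbol, against 60, a pseudocount of 1 gave 84 and TMM scaling 62, and leaving out single hours gave 52 to 80. The median hour of the maximum was 6 with either scaling. No paired analysis was possible because each hour has 1 library and the labels give no replicate numbers. Depth limits the lowest members: C24A3.1 had 94 reads over hours 4 to 7.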
